A study of Rattus norvegicus with 32 samples.

Results

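The neuregulin and ERBB receptor system of the rat left ventricle was measured here by the genes of the receptors Egfr, Erbb2, Erbb3 and Erbb4 and of the ligands Nrg1, Egf, Hbegf, Areg, Ereg and Btc. A probe belonged to the system when it was not a control and its gene name, in either of the annotation versions that the arrays carried, was one of these 10 symbols. This rule found 18 of 45598 probes. A probe was tested in a sex when its signal was well above background in 80% or more of the rats of any single group, which left 13 probes of 9 genes in males and 10 probes of 7 genes in females. The 10 members stood among 30914 distinct names in the annotation of the female arrays.

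Left ventricles were taken 20 h after surgery from 32 Wistar rats aged 9 to 12 weeks, and each RNA sample was hybridised to its own 1-colour array. In CLP the cecum is tied off and pierced so that gut bacteria leak into the abdomen and sepsis follows. Landiolol blocks the β1-adrenergic receptor and is cleared within minutes. In each sex there were 5 sham rats, 5 CLP rats and 6 rats given CLP plus landiolol, the last infused at 0.1 mg per kg per min starting after the ligation. The other rats received saline without the drug, and all had buprenorphine against pain and no antibiotic in the infusion. Every heart had been used for an ex vivo measurement of function on a perfusion apparatus before it was frozen, so the tissue had been perfused outside the body in all groups.

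ERBB receptors are receptor tyrosine kinases that work in pairs. Neuregulin-1 binds ERBB3 and ERBB4, ERBB2 has no known ligand and is the preferred partner of the others, and ERBB3 has little kinase activity of its own and passes the signal on mainly through PI3K. EGF, amphiregulin (Areg), epiregulin (Ereg), betacellulin (Btc) and heparin-binding EGF-like growth factor (Hbegf) bind EGFR, and some of them bind ERBB4 too. In the heart, neuregulin-1 made by endothelial cells acts on ERBB4 and ERBB2 of cardiomyocytes, a route known for its need in cardiac development and for the heart failure that can follow drugs against ERBB2. In nerve, ERBB3 carries the neuregulin signal of Schwann cells.

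Arrays had 34920 to 43155 spots well above background in males and 36151 to 38705 in females, with no saturated spot, and the number of arrays limits the precision. Male and female arrays lay on different slides, so a difference in level between the sexes cannot be told apart from the slide. All female sham arrays lay in row 1 of their slides and all female CLP plus landiolol arrays in row 2. All 8 ventricular cardiomyocyte markers were well above background on every array, as were the 3 atrial markers, and of the 5 epithelial markers Epcam and Cdh1 were on no array. Of 6 neutrophil markers 2 were tested, and S100a8 and S100a9 rose after CLP in males and S100a8 in females. In sham rats S100a8 was well above background on 0 of 5 male and 1 of 5 female arrays, and S100a9 on 3 of 5 and 2 of 5. Both were tested only because the CLP and landiolol groups met the detection limit, so these rises are descriptions. Of 8 macrophage markers 4 rose in males and 3 in females, and Csf1r had differences of -0.07 and -0.01, beside 7.81% of all probes called in males and 3.63% in females.

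The probes differ in what they read, and the sequences below are shown because the results on the receptors rest on them. Coordinates are those of build rn4 in the file headers. Erbb3 had a bright probe, A_42_P677337, at chr7:1856510-1856569 on the minus strand, and a dim probe, A_64_P080643, at chr7:1858095-1858154 on the same strand, with 1525 bases between them. The bright probe was named Erbb3 in the female files only, and the male files named it by an expressed sequence tag, so its identity as Erbb3 rests on that annotation. The first 30 bases of each are given in lower case, with nothing marked. The probe of Erbb4 covers 60 bases of message but 1731 bases of the genome, at chr9:66844421-66846151 on the minus strand, so it crosses a gap between exons, and it has a single open frame, of 20 codons, whose 2 tyrosine codons are in capitals.
Erbb3 A_42_P677337: ttgcagatacatactccttacaagccaatt
Erbb3 A_64_P080643: aggcttttccccaaggctaatgcccagaga
Erbb4 A_44_P529426: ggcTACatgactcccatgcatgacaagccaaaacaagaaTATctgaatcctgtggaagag

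Detection differed among the 18 probes. Those leading for Erbb2, Erbb3, Egfr, Egf and Hbegf were well above background on all 32 arrays, and those of Erbb4 and Areg on all but 1 or 2. Btc was detected on 0 of 32. Of the 5 probes of Nrg1, 3 were detected on 1 array at most in each sex, the brightest on 9 of 16 male and 10 of 16 female arrays, and A_64_P281840 on 13 of 16 male but 2 of 16 female arrays. Levels of different probes were not compared with each other, since a probe's brightness also depends on its sequence.

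**Figure D1:**
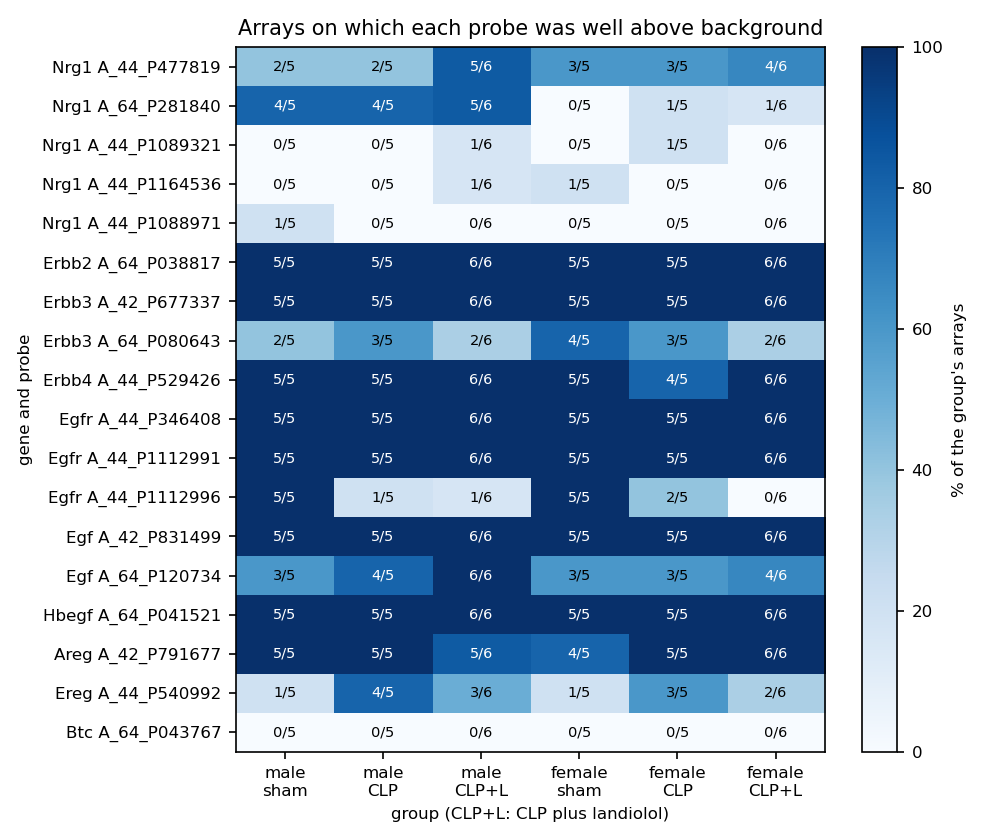
Number of arrays on which each of the 18 probes (rows, with gene names) was well above background in each group (columns), shaded by the percent of the group's arrays. The main probes of Erbb2, Erbb3 and Egfr are detected on all arrays, that of Erbb4 on all but 1, Btc on none, and Egfr A_44_P1112996 on 5 of 5 sham arrays of each sex but on few arrays of the other groups.

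In limma the only gene of the system past the FDR (false discovery rate) level was the receptor Erbb3. It was lower after CLP than in sham rats in both sexes, at 0.579 of the sham signal in males and 0.513 in females. With landiolol its level lay between that of CLP and sham, and neither of those differences passed. In females the sham and landiolol groups cannot be told apart from the slide row. SAM (significance analysis of microarrays), the method the study used, also called Areg and Ereg for CLP vs sham in males, Nrg1 for CLP plus landiolol vs sham in males, and Erbb2 and an Egfr probe other than the brightest for CLP plus landiolol vs sham in females.

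Signals of Erbb3 (A_42_P677337) are log2 normalised signals here and in what follows for all genes. In males they were 6.97, 6.78, 6.49, 6.90 and 6.495 in the sham group and 6.01, 6.12, 5.95, 5.59 and 6.03 in the CLP group. The CLP plus landiolol group had a lowest value of 5.998, a median of 6.44 and a highest of 6.80. All 5 CLP rats lay below all 5 sham rats, and the landiolol group overlapped both. In limma, CLP vs sham gave a log2 difference of -0.79 (SE 0.15, 95% interval -1.11 to -0.46, adjusted p = 0.00248), which passed the FDR of 1%. CLP plus landiolol vs CLP gave 0.47 (SE 0.15, adjusted p = 0.131) and CLP plus landiolol vs sham gave -0.31 (SE 0.15, adjusted p = 0.201).

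In females Erbb3 signals were 6.49, 6.63, 6.24, 6.76 and 6.504 in the sham group and 5.56, 4.93, 5.84, 5.69 and 5.79 in the CLP group. The CLP plus landiolol group had a lowest value of 5.99, a median of 6.31 and a highest of 6.63. The CLP rats lay below all the sham rats and below all the landiolol rats, while sham and landiolol overlapped. CLP vs sham gave -0.96 (SE 0.18, 95% interval -1.35 to -0.58, limma adjusted p = 0.00365). CLP plus landiolol vs CLP gave 0.73 (SE 0.18, 95% interval 0.36 to 1.10, unadjusted p = 0.000734 and adjusted p = 0.136 in limma), above an FDR of 5%. CLP plus landiolol vs sham gave -0.23 (SE 0.18, adjusted p = 0.435) and ranged from -0.53 to -0.09 over the alternatives. The female sham and landiolol groups lay in different rows of the slides and cannot be told apart from the row.

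The female call was close to its limit. Without female sham replicate 2 the adjusted p was 0.0101, and without female sham replicate 4 it was 0.0114. It was 0.0129 with normexp background correction, where the difference was -0.47, and 0.0153 when the CLP and sham rats were fitted alone. In males the difference with normexp was -0.44 (adjusted p = 0.00553). Within the 2 slides of each sex the CLP vs sham difference of Erbb3 was -0.85 and -0.82 in males and -1.10 and -0.97 in females. All CLP rats lay below all sham rats, so the sign within a slide was fixed in advance and only the size is described. When the slide row entered the fit the difference was -0.79 (limma adjusted p = 0.00430) in males and -1.08 (adjusted p = 0.00931) in females. The female landiolol vs CLP difference of Erbb3 was 0.55 with that term (limma adjusted p = 0.790) and 1.01 and 0.53 within the slides.

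The dim Erbb3 probe, A_64_P080643, gave no second reading of this. It was well above background on 7 of 16 male arrays, failed the filter there, and in females gave -0.27 for CLP vs sham with a 95% interval of -1.35 to 0.82, which holds both 0 and the value of the bright probe.

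Schwann cells depend on ERBB3, and 3 of their marker genes were measured beside it. S100b, a calcium-binding protein of glia, fell by 1.27 on the log2 scale in CLP males (limma adjusted p = 0.00703) and had a difference of -0.69 in females (adjusted p = 0.480) that was not called. Mbp, a protein of myelin, had differences of -1.65 in males (adjusted p = 0.0155) and -0.68 in females (adjusted p = 0.286), neither of them called. Sox10, a transcription factor of the lineage, had 0.31 and 0.09 and so differed in sign from the others. In all, 1 of these 3 genes was called in males and 0 of 3 in females for CLP vs sham, and 0 of 3 in either sex for the landiolol comparisons. Of all probes 7.81% in males and 3.63% in females were called for CLP vs sham. The signal summed over the 3 genes ranged from 8.56 to 9.73 in male sham, 8.16 to 9.17 in male CLP and 8.89 to 9.43 in male CLP plus landiolol rats. In females it ranged from 8.43 to 9.20, from 8.32 to 8.89 and from 8.11 to 9.03 in the same order. Each of the 3 was well above background on at least 1 array of every group. Their part in the Erbb3 result was not tested, and in bulk tissue fewer cells of a type and less RNA per cell cannot be told apart.

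**Figure D2:**
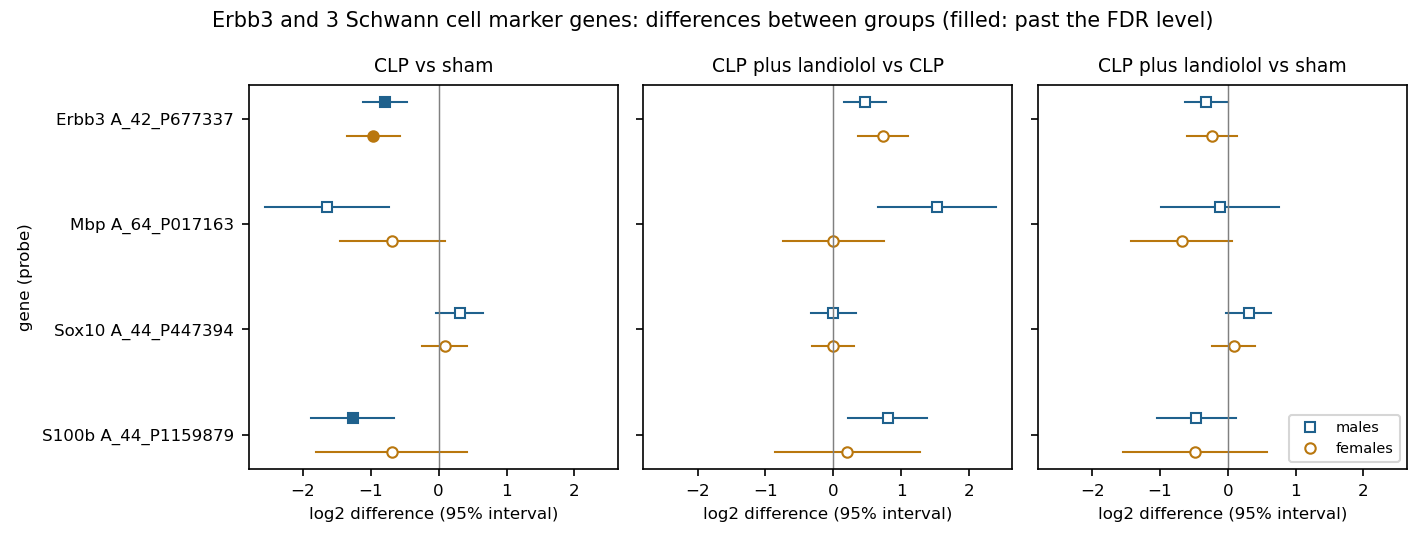
Log2 differences with 95% intervals (x axis) of Erbb3 and 3 Schwann cell marker genes (rows) in the 3 comparisons, males as squares and females as circles, filled where the difference passed its FDR level. For CLP vs sham Erbb3, S100b and Mbp have differences below 0 in both sexes and Sox10 does not.

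Erbb2, the receptor without a ligand of its own, had signals of 9.37, 8.87, 9.24, 9.13 and 9.18 in male sham and 9.45, 9.52, 9.45, 9.12 and 9.75 in male CLP rats. In male CLP plus landiolol rats the lowest was 9.03, the median 9.63 and the highest 9.94. The male groups overlapped, with differences of 0.30 for CLP vs sham (adjusted p = 0.258), 0.09 for CLP plus landiolol vs CLP (adjusted p = 0.811) and 0.39 for CLP plus landiolol vs sham (adjusted p = 0.140).

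In females Erbb2 signals were 9.30, 8.87, 9.39, 9.25 and 9.34 in sham and 9.15, 9.26, 9.35, 9.66 and 9.90 in CLP rats. In female CLP plus landiolol rats the lowest was 9.56, the median 9.82 and the highest 9.98. All 6 landiolol rats lay above all 5 sham rats, with CLP rats between and overlapping both. The difference of CLP plus landiolol vs sham was 0.57 (SE 0.15, 95% interval 0.26 to 0.89, limma adjusted p = 0.0199), which missed the FDR of 1%, with a SAM q of 0.00310. Without female CLP replicate 5 the adjusted p was 0.00920 with the same difference. These groups lay in different rows of the slides, and with the row as a term the difference was 0.04 (adjusted p = 0.975), and these groups cannot be told apart from the row. Within the 2 slides it was 0.33 and 0.87.

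Egfr, the receptor of EGF and its relatives, was read by 3 probes. The brightest, A_44_P346408, had signals of 8.89, 8.74, 8.81, 8.52 and 8.56 in male sham and 8.17, 8.41, 7.86, 8.07 and 8.48 in male CLP rats, and from 8.16 to 8.83 with a median of 8.50 in male landiolol rats. The male CLP rats lay below the sham rats without overlap. The difference was -0.51 (SE 0.15, 95% interval -0.82 to -0.20, limma adjusted p = 0.0260), past an FDR of 5% but not of 1%. The other probes gave -0.62 (adjusted p = 0.0536) and -0.55 (adjusted p = 0.421) in the same comparison. CLP plus landiolol vs CLP gave 0.29 in males (adjusted p = 0.356), with 0.34 for A_44_P1112991 and -0.20 for A_44_P1112996, the dimmest probe. That probe was well above background on 5 of 5 male sham, 1 of 5 CLP and 1 of 6 landiolol arrays. Its sign for landiolol vs CLP thus rests on signals near the background. It was tested in males only because the sham group met the detection limit, so its values are descriptions.

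In females Egfr A_44_P346408 had signals of 8.55, 8.65, 8.72, 8.71 and 8.70 in sham and 8.91, 8.20, 8.39, 8.29 and 8.24 in CLP rats, and from 8.38 to 8.55 with a median of 8.45 in landiolol rats. A single CLP rat, replicate 1, was above all sham rats and the other 4 were below them. The CLP vs sham difference was -0.26 (SE 0.13, adjusted p = 0.251), and -0.39 without that rat (adjusted p = 0.0314). Over all fits without a single rat it ranged from -0.39 to -0.21, with limma adjusted p from 0.0314 to 0.394. The dimmest Egfr probe, A_44_P1112996, was well above background on 5 of 5 female sham, 2 of 5 CLP and 0 of 6 landiolol arrays. For CLP plus landiolol vs sham it gave -0.82 (95% interval -1.30 to -0.34, limma adjusted p = 0.0256, measured means 4.84 in sham and 4.02 in landiolol rats). Sham was 1.73-fold higher when landiolol signals below the lowest that count as well above background were raised to that level. This fold does not allow for the spread between rats. These groups lay in different rows of the slides and cannot be told apart from the row. The probe was tested in females only because the sham group met the detection limit, so the fold and the p-value are descriptions. For CLP plus landiolol vs CLP it gave -0.21 (95% interval -0.69 to 0.27, adjusted p = 0.841). Fibroblast markers, of which 4 of 7 fell and 1 rose after CLP in males and 0 of 7 were called in females (7.81% and 3.63% of all probes), had a summed signal of 16.25 to 16.93 in male sham and 15.55 to 16.47 in male CLP rats, and 15.79 to 16.58 in male landiolol rats. The female ranges were 15.63 to 16.19, 15.36 to 16.34 and 15.84 to 16.39 in the same order. Such a sum follows its brightest genes. Gene by gene, 2 of the 7 markers were higher after CLP in each sex. Their median log2 difference was -1.34 in males and -0.95 in females. The part of the fibroblast markers in the Egfr values was not tested.

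Erbb4, the neuregulin receptor of cardiomyocytes, had signals of 5.37, 5.29, 5.51, 5.55 and 5.72 in male sham and 5.78, 6.06, 5.82, 6.07 and 5.47 in male CLP rats, and from 5.04 to 5.89 with a median of 5.50 in landiolol rats. The male groups overlapped, with 0.35 for CLP vs sham (SE 0.16, adjusted p = 0.163) and -0.40 for CLP plus landiolol vs CLP (SE 0.16, adjusted p = 0.241). In females the 3 means were 5.31, 5.31 and 5.32, and the interval of CLP vs sham was -0.53 to 0.53.

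**Figure D3:**
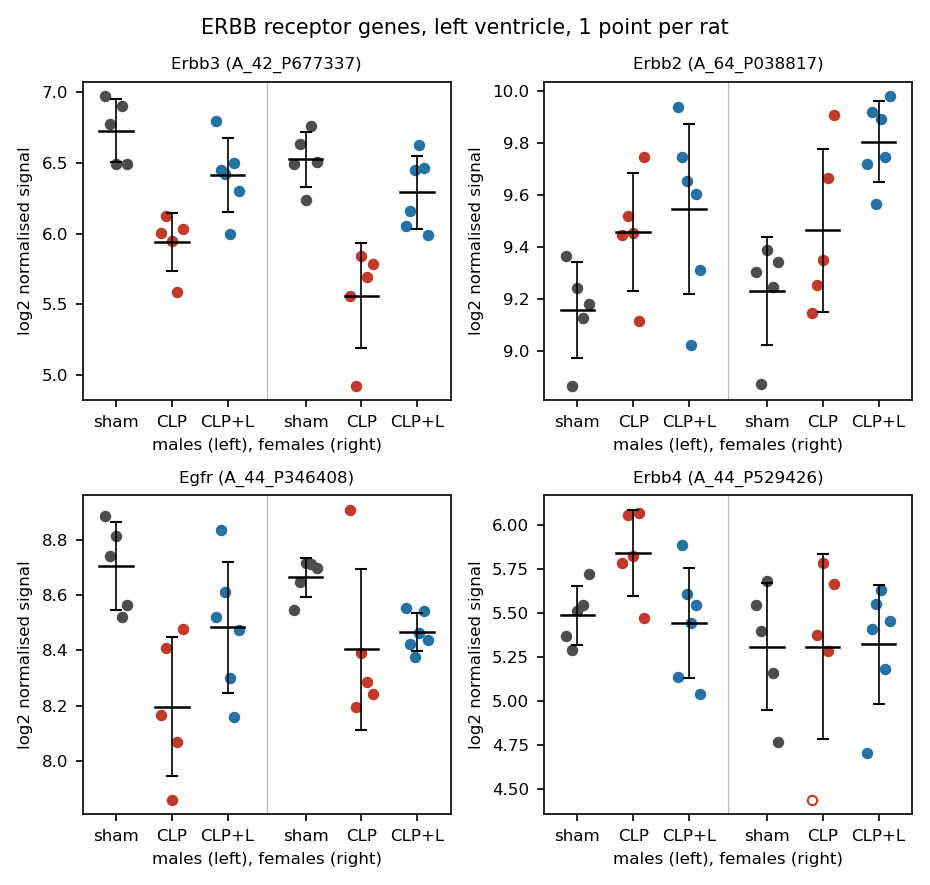
Log2 normalised signal (y axes, a scale of its own for each probe) of the 4 receptor genes by group, 1 point per rat, open where the probe was not well above background, with the mean as a line and the SD as a bar. Erbb3 in CLP rats sits below the sham rats in both sexes, while Erbb2 and Erbb4 overlap between sham and CLP.

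Nrg1, the neuregulin that endothelial cells supply to cardiomyocytes, was near the detection limit. Its brightest probe, A_44_P477819 at chr16:64124972-64125031 on the plus strand, had signals of 3.49, 5.01, 2.40, 5.03 and 2.38 in male sham and 3.51, 5.85, 3.38, 4.06 and 5.95 in male CLP rats. In male CLP plus landiolol rats the lowest was 4.395, the median 5.52 and the highest 7.07. It was well above background on 2 of 5, 2 of 5 and 5 of 6 arrays in that order, and the groups overlapped. CLP plus landiolol vs sham gave 1.99 (SE 0.64, 95% interval 0.63 to 3.36, limma adjusted p = 0.0627), CLP vs sham gave 0.89 (adjusted p = 0.434) and CLP plus landiolol vs CLP gave 1.10 (adjusted p = 0.447).

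The second Nrg1 probe that passed the filter in males, A_64_P281840 at chr16:64093933-64093992, gave 0.86 for CLP plus landiolol vs sham (adjusted p = 0.195), 0.38 against CLP alone, and its CLP vs sham difference was 0.49. Both probes thus had their lowest mean in sham and their highest with landiolol, without a call in limma. SAM called the brightest probe for CLP plus landiolol vs sham (q = 0.00544), and the difference was 0.56 with normexp background correction. That probe was tested only because the male landiolol group met the detection limit. In females no Nrg1 probe passed the filter. The brightest had means of 3.97 ± 1.44 (SD, n = 5) in sham, 5.01 ± 0.87 (SD, n = 5) in CLP and 5.13 ± 1.72 (SD, n = 6) in landiolol rats, a spread as wide as the differences.

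Hbegf, the heparin-binding ligand that is cut from the cell surface, was detected on all arrays. Male signals were 7.96, 9.76, 8.59, 8.77 and 8.74 in sham, 8.10, 8.91, 9.21, 9.79 and 9.70 in CLP, and from 8.09 to 9.35 with a median of 8.68 in landiolol rats. Female signals were 7.73, 8.82, 9.80, 9.02 and 8.69 in sham, 9.87, 8.09, 10.25, 9.49 and 9.65 in CLP, and from 7.39 to 9.49 with a median of 8.95 in landiolol rats. All groups overlapped. CLP vs sham gave 0.38 (SE 0.35, adjusted p = 0.540) in males and 0.66 (SE 0.45, adjusted p = 0.419) in females, and CLP plus landiolol vs CLP gave -0.47 (adjusted p = 0.539) and -0.69 (adjusted p = 0.663). The within-slide values of the last comparison in females were 0.34 and -1.49, and so differed in sign.

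Areg, a ligand of EGFR, had signals of 5.98, 8.60, 7.79, 7.13 and 8.53 in male sham and 5.77, 6.44, 5.37, 6.25 and 6.48 in male CLP rats, and from 4.54 to 8.48 with a median of 7.0 in landiolol rats. Only the lowest sham rat lay within the CLP range. The difference of CLP vs sham was -1.54 (SE 0.60, 95% interval -2.83 to -0.26, limma adjusted p = 0.0979), with a SAM q of 0.00634. In females it was -0.27 (SE 0.90, adjusted p = 0.906), with sham signals of 3.003, 7.68, 8.38, 7.46 and 7.40 and CLP signals of 8.35, 4.71, 5.70, 6.32 and 7.49. Without the sham rat at 3.003, replicate 1, it was -1.22 (adjusted p = 0.322). Over all fits without a single rat it ranged from -1.22 to 0.18, so its sign depended on the rat left out.

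Ereg, epiregulin, was detected on few sham arrays, 1 of 5 in each sex, against 4 of 5 in male CLP and 3 of 5 in female CLP rats. Its probe, at chr14:18521343-18522341, spans 999 bases of the genome and so also crosses a gap between exons. Male signals were 3.48, 4.77, 2.05, 2.33 and 2.11 in sham and 4.61, 4.25, 4.81, 5.67 and 4.95 in CLP, and from 2.19 to 7.23 with a median of 4.25 in landiolol rats. The groups overlapped through the sham rat at 4.77. The probe was tested in males only because the CLP group met the detection limit. CLP vs sham gave 1.91 (SE 0.78, 95% interval 0.25 to 3.56, limma adjusted p = 0.113, SAM q = 0.00264), and on the 2 male slides the difference was 0.43 and 3.14. It was 0.34 with normexp and 0.19 (adjusted p = 0.798) in the values the authors normalised. In females the probe did not pass the filter and had means of 2.85 ± 0.97 (SD, n = 5), 4.98 ± 1.36 (SD, n = 5) and 3.97 ± 1.11 (SD, n = 6) in sham, CLP and landiolol rats.

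Egf, the founding member of the family, was read by a bright and a dim probe. For the bright one, A_42_P831499, male group means ran from 6.82 to 6.93 and female means from 7.03 to 7.52. No Egf difference was called in limma, and in males all 3 of this probe were between 0.01 and 0.12. The dim probe, A_64_P120734, gave 0.32 for CLP vs sham in males, and with landiolol 0.22 against CLP and 0.54 against sham (95% interval -0.04 to 1.11, adjusted p = 0.243), and it was not tested in females. In females CLP plus landiolol vs CLP gave 0.49 (SE 0.24, 95% interval -0.02 to 0.998, adjusted p = 0.556). Btc, betacellulin, was not well above background in any rat and gave no comparison.

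**Figure D4:**
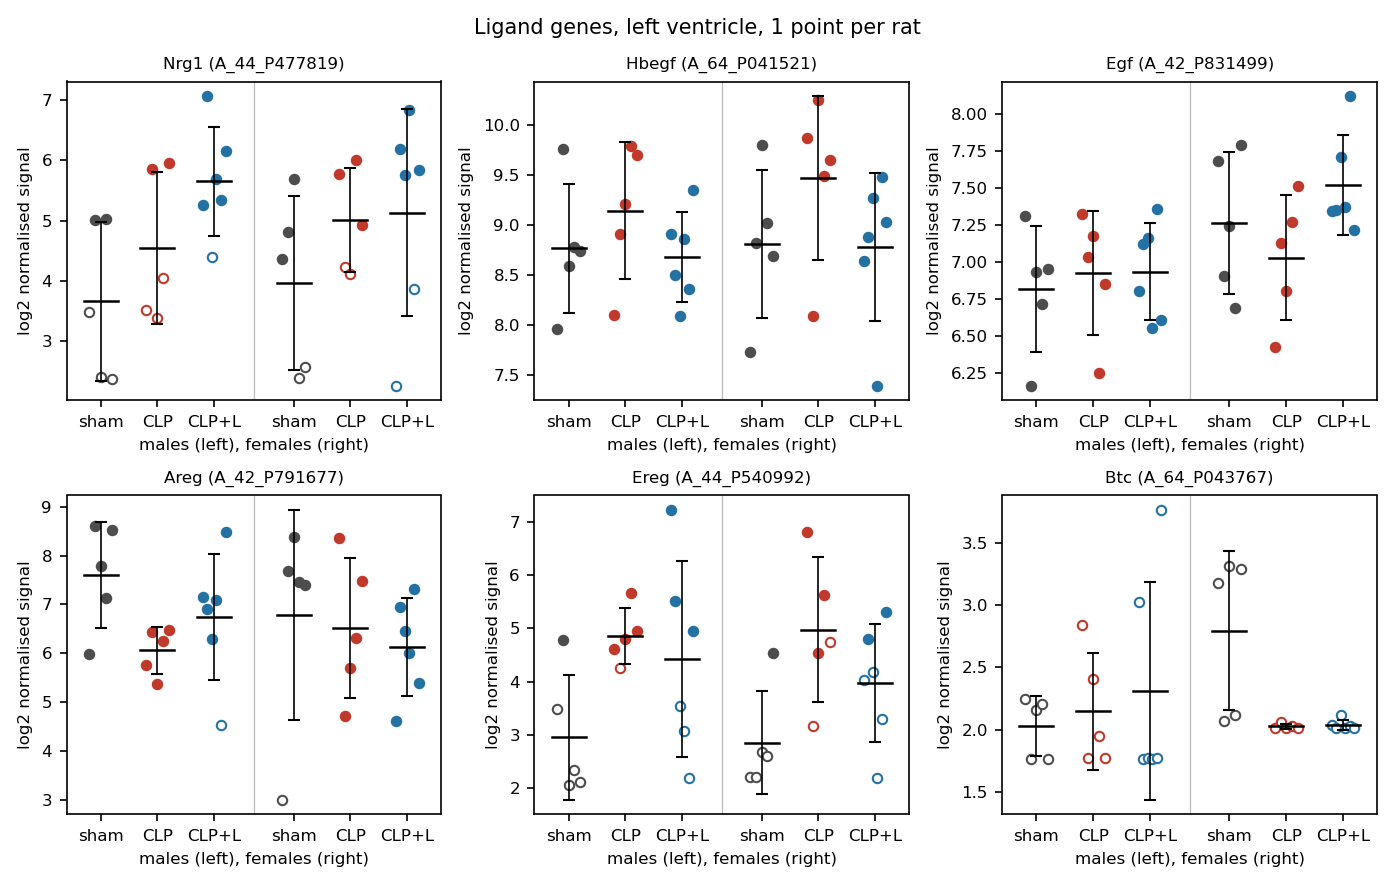
Log2 normalised signal (y axes, a scale of its own for each probe) of the 6 ligand genes by group, 1 point per rat, open where the probe was not well above background, with the mean as a line and the SD as a bar. Groups of the detected ligands overlap, with a single female sham rat far below the others for Areg, and all Btc points are open, so their order has no meaning.

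Across the system, 1 of 13 probes passed in CLP vs sham in males, where 7.81% of all 25866 probes tested passed, and 1 of 10 in females, where 3.63% of 25395 did. Each of those calls is a single probe, that of Erbb3. For CLP plus landiolol vs CLP, 0 of 13 passed in males (background 1.56%) and 0 of 10 in females (background 0.0945%) in limma, with 2 probes at an unadjusted p under 0.05 in each sex. For CLP plus landiolol vs sham, 0 of 13 passed in males (background 4.15%) and 0 of 10 in females (background 5.25%), with 4 and 3 probes at an unadjusted p under 0.05. Counted by gene, SAM called 3 for CLP vs sham in males (Erbb3, Areg and Ereg) and 1 in females (Erbb3), 0 in both landiolol vs CLP comparisons, and 1 in males (Nrg1) and 2 in females (Egfr and Erbb2) for landiolol vs sham. The comparisons share arrays, so their values are not independent. The brightest Nrg1 probe and Ereg in males, the dim Erbb3 probe in females and the dimmest Egfr probe in both sexes were tested only because 1 group met the detection limit, so the counts are descriptions.

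Groups did not overlap for 2 of 13 probes in CLP vs sham in males (Erbb3 and Egfr, against 12.3% of all probes) and for 1 of 10 in females (Erbb3, 8.32%). For CLP plus landiolol vs CLP this was so for 0 of 13 in males (2.27%) and 1 of 10 in females (Erbb3, 1.15%). For CLP plus landiolol vs sham it was so for 0 of 13 in males (7.79%) and 2 of 10 in females (Erbb2 and the dimmest Egfr probe, 9.74%). In CLP vs sham the probes tested had a median difference of 0.30 in males and -0.26 in females, beside 0.01 and -0.01 over all probes. These medians cannot be compared between the sexes, since the filter kept different probes. Nrg1 (0.89 and 0.49), Ereg (1.91) and the dim Egf probe (0.32) counted in males only. The dim Erbb3 probe (-0.27) counted in females only.

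**Figure D5:**
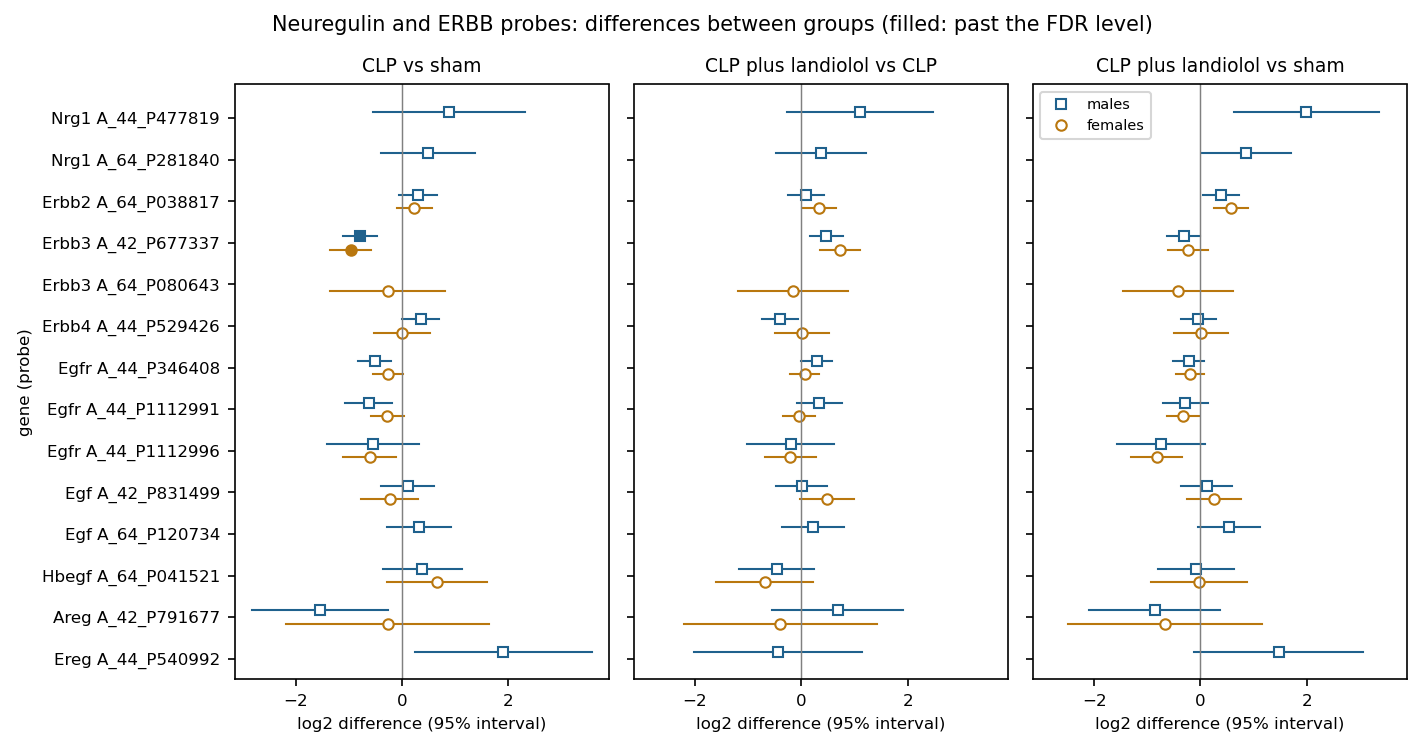
Log2 differences with 95% intervals (x axis) of the 14 probes that passed the filter in either sex (rows) for the 3 comparisons, males as squares and females as circles, filled where the difference passed its FDR level. The filled points are those of Erbb3 for CLP vs sham, and the ligands Nrg1, Areg and Ereg have the widest intervals.

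The changes did not differ detectably between the sexes. In the limma interaction, males minus females on the 32 arrays normalised together, 0 of 14 probes passed an FDR of 5% in any of the 3 comparisons, as did 0% of the 26492 probes tested, and 0 of 14 had an unadjusted p under 0.05. For Erbb3 the difference between the sexes in CLP vs sham was 0.17 (95% interval -0.31 to 0.65), and in CLP plus landiolol vs CLP it was -0.25 (95% interval -0.72 to 0.21). For Erbb2 in CLP plus landiolol vs sham it was -0.20 (95% interval -0.64 to 0.24). Intervals of Areg and Nrg1 were wide, from -3.56 to 1.04 for Areg and from -2.36 to 2.13 for Nrg1 in CLP vs sham.

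Around the receptors, the largest called change was in Cblb, a ubiquitin ligase of the family that marks activated receptors for degradation. It rose by 2.24 on the log2 scale after CLP in males (SE 0.23, limma adjusted p = 2.00e-05) and by 2.00 in females (SE 0.27, adjusted p = 0.000359). With landiolol it stayed above sham, by 1.64 in males (adjusted p = 0.000270) and 2.51 in females (adjusted p = 3.73e-05). Among the 14 tested feedback inhibitors and turnover genes, 2 rose and 0 fell after CLP in males, Cblb and the phosphatase Ptpn12 (0.43, adjusted p = 0.00606), and Cblb alone rose in females, beside the 7.81% and 3.63% of all probes called.

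Of the 34 adaptors and downstream kinases, 3 fell and 0 rose in CLP males and 0 were called in CLP females, beside 7.81% and 3.63% of all probes called in either direction, so the male share is near the background. They were the adaptors Grb14 (-0.70, adjusted p = 0.00459) and Crk (-0.39, adjusted p = 0.00745) and the transcription factor Stat5a (-0.64, adjusted p = 0.00682). In females their differences were -0.47, -0.50 and -0.53, none of them called. In landiolol vs sham males 1 of the 34 fell, the kinase Akt2 (-0.53, adjusted p = 0.00199), and 1 rose, the kinase Pak1 (0.75, adjusted p = 0.00864). In that comparison 4.15% of all probes were called. In landiolol vs CLP males Shc1, an adaptor that binds phosphorylated receptors, fell (-1.06, adjusted p = 0.0435). It was the only called gene of the 66 tested in all lists, beside 1.56% of all probes called, so the share is near the background.

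Of 11 tested sheddases and cofactors, which free ligands such as Hbegf from the membrane, 1 gene, Adam9, rose in CLP males, a share near the 7.81% of all probes (1.04, adjusted p = 0.00727, with 0.80 and adjusted p = 0.0446 in females), and 1, Adam12, fell in landiolol vs sham males (-1.15, adjusted p = 0.00644, beside 4.15% of all probes called). In females 0 of 9 were called in any comparison. The 4 tested partners at the membrane, Cd9, Cd44, Sdc4 and Erbb2ip, were not called. For CLP vs sham the first 3, which are surface proteins, had differences of 0.42, 0.87 and 0.79 in males and 0.44, 0.45 and 0.44 in females, and Erbb2ip, which binds ERBB2, had -0.04 and 0.01. Among the other ligands of the family Nrg2, Nrg4 and Tgfa were tested in both sexes and Epgn in females, and none was called, with differences between -0.23 and 0.51 for CLP vs sham. Over all 5 lists the median difference for CLP vs sham was -0.02 in 66 male genes and -0.03 in 65 female genes, near that of all probes.

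The genes most like 3 members in pattern were sought over the 32 arrays after each sex's mean was subtracted, among 12464 named genes. This is a description, since the arrays share groups and slides, and for Nrg1 it includes the 13 arrays on which its probe was not well above background. For Nrg1 they were Plvap, a protein of endothelial diaphragms (Pearson r = 0.82), the non-coding RNA H19 (0.80) and Edn1, endothelin-1 (0.70). For Hbegf they were Myc (0.86), the protease Adamts4 (0.76) and the TWEAK receptor Tnfrsf12a (0.75). For Erbb2 they were Nr2f2, Mau2 and Gnl2, each at 0.80.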

How the data were processed

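RNA of 32 left ventricles was measured on 1-colour Agilent rat arrays. The authors deposited scanner output of Agilent Feature Extraction 10.5, with a background-subtracted intensity for every spot, and a table of quantile-normalised, filtered log2 values. That table ranked spots like the scanner values (Spearman 0.995 to 1.00 per array). Any offset behind its log2 scale is not given in the sources used here.

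Control spots and outlier spots were left out. Processed intensities were taken to log2 and quantile-normalised within each sex. All 3 groups of a sex were fitted with limma 3.58.1 in R 4.3.3 (eBayes without trend), and p-values were adjusted by Benjamini-Hochberg over all probes kept. FDR levels were 1% against sham and 5% for landiolol vs CLP. The study's methods name SAM, which was run as an alternative with 100 drawn permutations. Each gene was described by its probe with the highest mean, and others were given where they differed. Of the pathway lists, genes were named by the size of their called change, at most 3 per list and comparison. Replicate numbers only name rats and pair none. Scripts were tested on simulated data. The members and lists were chosen with earlier results of these data known, and some genes of the marker lists are not reported here.

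Alternatives were other scaling, background correction, filters, an intensity trend, batch terms, FDR levels and leaving out each array.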

Additional observations from a re-analysis of the deposited data

Results flagged for a closer look

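Of 69 sets of values (a probe in a group of 5 or 6 rats), 6 held a rat far from the others of its group, and chance alone marks about 1 in 20 such sets. In female sham rats these were replicate 2 for Erbb2 (8.87, nearest 9.25), replicate 3 for the dim Erbb3 probe (4.28, nearest 4.95) and replicate 1 for Areg (3.003, nearest 7.40), the last the widest gap. In female CLP rats replicate 1 was high for both brighter Egfr probes (8.91, nearest 8.39, and 8.04, nearest 7.54). In male CLP plus landiolol rats replicate 3 was high for Egfr A_44_P1112991 (8.35, nearest 7.95). No difference between the sexes passed its test.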

How the results depend on the processing

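The number of called probes was the same under all alternatives for CLP plus landiolol vs CLP (0 in both sexes) and for the differences between the sexes (0). For CLP vs sham in males it was 1, 3 with SAM (Erbb3, Areg and Ereg) and 2 at an FDR of 5% (Erbb3 and Egfr), and 1 in every fit without a single rat. For CLP vs sham in females it was 1, and 0 with normexp correction (Erbb3 -0.47, adjusted p = 0.0129) and with 2 groups alone (adjusted p = 0.0153), and from 0 to 1 without single rats. For CLP plus landiolol vs sham it was 0 in males, 1 with SAM (Nrg1) and 0 without any single rat. In females it was 0, 1 with 75th percentile scaling (Egfr) and with 2 groups alone (Egfr), 2 with SAM and 2 at an FDR of 5% (Egfr and Erbb2), and from 0 to 1 without single rats. The cause was not tested.

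Over 75 gene-level differences and 2535 recomputed values, 2509 kept their side of the threshold or stayed within the spread between rats, and no called difference turned its sign. Only Erbb3 for CLP vs sham was called in the main fit, so most of these were uncalled differences that stayed uncalled. Some settings, such as leaving out a rat of a group not compared, keep the difference by design. The count is therefore a description. The sign of uncalled differences changed 121 times, in 31 of them. Erbb3 for CLP vs sham ranged from -0.88 to -0.44 in males and from -1.10 to -0.47 in females. No paired analysis was possible because the replicate numbers come from the order of the samples.

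Dim probes limit the ligands: Nrg1, Ereg and Btc were at or below the background on many arrays, and background correction moved the Nrg1 difference of landiolol vs sham in males from 1.99 to 0.56 with normexp. The Ereg difference of CLP vs sham in males moved from 1.91 to 0.34 with normexp and to 0.19 in the deposited normalised values.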
